A study of Homo sapiens with 2 samples.

Results

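The genes of respiratory complexes II to V were measured in a slow-cycling and a non-slow-cycling population of 1 cell line, SK-ES-1. It is an established line of Ewing sarcoma, a bone and soft tissue tumour driven by a fusion transcription factor. Members were all genes named SDHA to SDHD, SDHAF1 to SDHAF4 or CYC1, or with a symbol starting with UQCR, UQCC, ATP5, or COX and a digit. Pseudogenes and hyphenated symbols were left out, which gave 68 of the 53737 genes in the tables. The members comprise 49 subunit genes and 19 assembly factors or accessory genes. There was 1 library of each kind, 2 in all, both described as wild type with no treatment named, and both prepared from total RNA with a stranded kit that selects polyadenylated RNA. How the slow-cycling cells were obtained is not given in the sources used here, and a single cell line cannot stand for Ewing sarcoma in general. Since each group is a single library, none of the differences below could be set against a replicate spread, and no test was run. In bulk RNA such as this, fewer cells of a type and less RNA per cell cannot be told apart.

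Oxidative phosphorylation takes place in the inner mitochondrial membrane. Complex II, succinate dehydrogenase, passes electrons from the citric acid cycle to ubiquinone, complex III passes them from ubiquinol to cytochrome c, and complex IV, cytochrome c oxidase, passes them on to oxygen. Complex V, the ATP synthase, uses the resulting proton gradient to make ATP. Complexes III, IV and V mix subunits encoded in the nucleus with subunits encoded in mitochondrial DNA, whereas complex II is wholly nuclear, and each needs its own assembly factors. In tumours these genes are often studied together with glycolysis and with the response to low oxygen.

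Levels are on a linear per-million scale, obtained by reversing the log2 of the deposited values, and the depth of sequencing behind them is unknown. Where a gene has 2 levels, the first is from the slow-cycling and the second from the non-slow-cycling library. Ratios are differences of log2(value + 1), slow-cycling minus non-slow-cycling, so a negative ratio means a lower level in the slow-cycling library. A gene counts as tested here, a filter on level and not a statistical test, if either library had it at 1 per-million unit or more. This held for 13444 genes and for 59 of the 68 members. Of the 59 members, 58 reached that level in both libraries and 1, COX6B2, only in the slow-cycling library. The other 9 members were listed at 0 in both libraries.

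The transcripts of all 4 complexes were lower in the slow-cycling library by small amounts. The medians of the 4 subunit groups lay between -0.22 and -0.14. With the trend of the ratio with level removed they ran from -0.16 for complex III to -0.058 for complex IV. The complex IV medians include COX6B2, a gene of low level whose trend-removed ratio was 0.70. Of the 59 tested members, 52 had a ratio below 0, against 43.8% of all tested genes. At least 1.1-fold lower were 35 members, a log2 ratio of -0.14 or less, against 19.4% of tested genes, and 3 were at least 1.1-fold higher, against 31.8%. The median log2 ratio was -0.17 over the members and 0.03 over all tested genes. Few members passed 1.5-fold: 2 were lower, against 1.41% of tested genes, and 1 was higher, against 5.38%. The members thus stood out by the shared direction of many small ratios, not in a few large ones.

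Abundant genes as a class were also lower in the slow-cycling library, which touches this comparison because most members are abundant. Of the tested genes with a mean level of 64 per-million units or more, 65.9% had a ratio below 0 and 27.4% were at least 1.1-fold lower, with a median of -0.06. Of the 42 members at that level, 40 were below 0 and 27 at least 1.1-fold lower, with a median of -0.18. Respiratory transcripts are also short, and among protein-coding genes at that level with a median transcript length under 1000 bases, 72.5% were below 0 and 36.5% at least 1.1-fold lower, with a median of -0.09. The part that level and transcript length play in the members' ratios is described by these shares and by trend-corrected values, and was not tested further. Protein-coding genes as a whole also made up less of the slow-cycling library. Those tested summed to 865120 and 888570 per-million units, a log2 ratio of -0.04, against -0.001 for all tested genes. The part of this shift in the members' ratios was not tested.

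**Figure D1:**
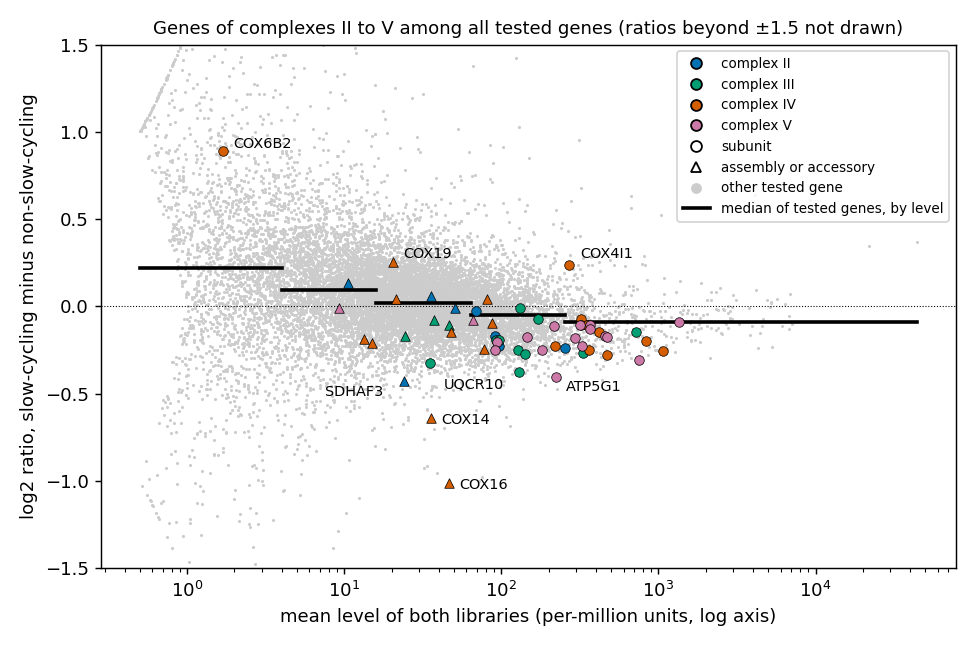
Log2 ratio (slow-cycling minus non-slow-cycling) against the mean level of both libraries on a log axis for every tested gene, with genes of complexes II to V coloured by complex, circles for subunits, triangles for assembly or accessory genes, and black bars for the median of tested genes in 5 ranges of level. Most coloured points lie below the bar of their level range, COX4I1 and COX19 lie above 0, and COX14 and COX16 lie furthest down.

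The Ewing sarcoma markers listed for a check of the cell line were present: 11 of 12 were tested, among them CCND1, PAX7, STEAP1, EWSR1 and NR0B1. The remaining one, FATE1, was at 0.448 and 0. The defining markers of leukocytes and red cells (PTPRC, CD3E, HBB and HBA1), of endothelium (PECAM1, VWF, CDH5 and KDR) and of muscle (MYOD1, MYOG, DES and CKM) were listed at 0 in both libraries. Of 10 markers of fibroblasts and pericytes 7 were tested, all 7 with a ratio above 0, against 7562 of the 13444 tested genes. Most of the 7 were under 16 per-million units. Of tested genes with a mean under 4 units 30.3% were below 0, and from 4 to 16 units 33.4%. The summed level of the 10 markers was 239 and 220, with PDGFRA at 0. Of 8 blood and immune markers 3 were tested, with summed levels of 15.5 and 9.66, and of 5 epithelial markers 3, with 20.2 and 21.2, KRT19 and CDH1 being at 0. The part of these marker genes in the ratios of the respiratory genes was not tested. All 13 protein-coding genes of mitochondrial DNA were listed at 0 in both libraries, although every cell uses them. A 0 in these tables can therefore be a failed estimate, and the complexes are described here through their nuclear genes alone.

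The summed level of the subunit genes, which shows whether the abundant members carry the difference, was lower for each complex by much the same proportion. Complex II summed to 476 and 546 per-million units, a log2 ratio of -0.20. Complex III summed to 1843 and 2104, a log2 ratio of -0.19. The sums of complex IV were 4358 and 4907, and those of complex V 5321 and 6004. Each of these pairs differed by -0.17 on the log2 scale. Over all 40 tested subunit genes, COX7C accounted for 12.0% of the summed difference, ATP5J2 for 10.2% and COX6A1 for 7.31%, so no single gene made up most of it. For comparison, 36 nuclear subunit genes of complex I, without NDUFAB1, were counted the same way and had a median ratio of -0.17. Of them 33 were below 0, against 43.8% of tested genes and 65.9% of those at 64 per-million units or more. At least 1.1-fold lower were 20, against 19.4% and 27.4%. The shared direction was thus not particular to complexes II to V.

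**Figure D2:**
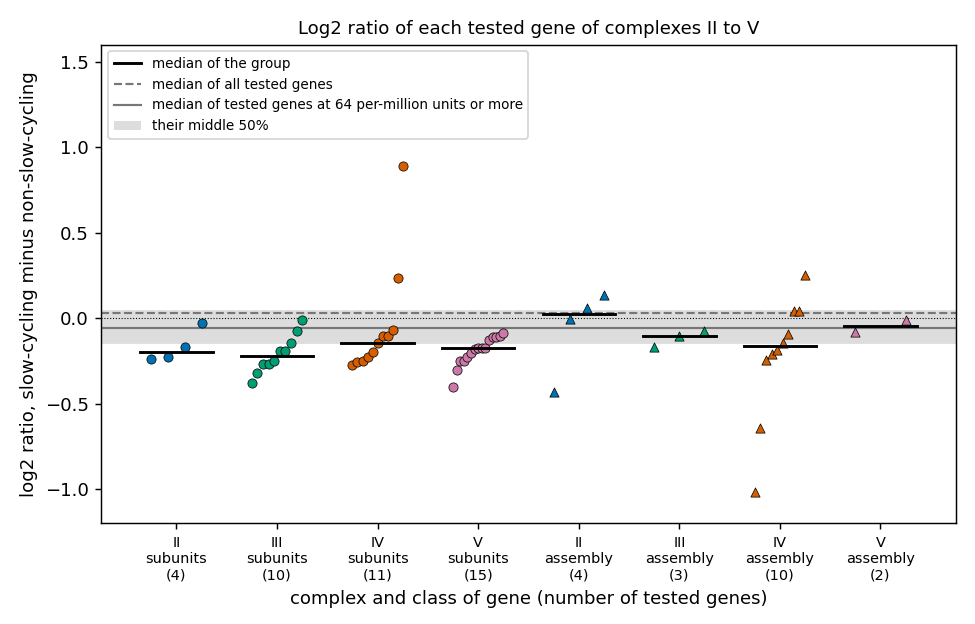
Log2 ratio (slow-cycling minus non-slow-cycling) of each tested gene, by complex and class, with a black bar for the median of each group, a dashed line for the median of all tested genes, and a solid line and grey band for the median and middle 50% of tested genes at 64 per-million units or more. The medians of the 4 subunit groups lie between -0.22 and -0.14, and the assembly genes of complex IV spread from -1.01 to 0.25.

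Because so many members had similar ratios, the stretches of DNA just before their start sites were searched for short motifs of factors known to bind promoters of respiratory genes. RefSeq windows (GRCh38.p14) of 300 bases, 250 before and 50 after the start, were matched to 47 of the 59 tested members by gene ID. The ETS-type motif CCGGAAGT, to which the GABP factor binds, was found on either strand in 13 of the 47 (27.7%), against 10.3% of 10433 tested genes and 4.95% of all 27305 genes with windows. The NRF1 motif, GCGC on either side of AT, was in 4 (8.51%), against 2.82% of tested genes, and the YY1 motif AAGATGGCG in 5 (10.6%), against 4.73%. The general promoter motif CCAAT was in 19 (40.4%), close to the 43.4% of tested genes. A run of 3 GGAA copies, of the kind the Ewing fusion protein binds, was in none of the 47 and in 0.0959% of tested genes. Within the members, the median ratio was -0.17 for the 13 with the ETS-type motif and -0.14 for the 34 without it.

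The 250 bases before the start are shown for 4 members that illustrate these windows and the spread of the ratios, 5′ to 3′, with any of the searched motifs in capitals. SDHD (chr11:112086623-112086872, plus strand) holds an NRF1 and an ETS-type motif, COX8A (chr11:63974370-63974619, plus strand) an ETS-type motif near the start and 2 copies of CCAAT on the other strand, and ATP5G1 (chr17:48892537-48892786, plus strand), the subunit gene with the lowest ratio, 4 copies of CCAAT. COX4I1 (chr16:85799445-85799694, plus strand), the one abundant subunit gene above 0, holds none of the 5 motifs. Other members with a window hold none of them either, and COX19 and COX6B2, also at least 1.1-fold higher, each hold CCAAT. A match describes these letters only and does not show binding.
SDHD: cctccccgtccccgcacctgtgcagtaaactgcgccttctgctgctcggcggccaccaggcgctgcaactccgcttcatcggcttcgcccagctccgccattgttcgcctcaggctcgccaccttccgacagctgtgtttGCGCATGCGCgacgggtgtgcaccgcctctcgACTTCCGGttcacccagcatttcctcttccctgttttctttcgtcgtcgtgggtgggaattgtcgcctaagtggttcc
COX8A: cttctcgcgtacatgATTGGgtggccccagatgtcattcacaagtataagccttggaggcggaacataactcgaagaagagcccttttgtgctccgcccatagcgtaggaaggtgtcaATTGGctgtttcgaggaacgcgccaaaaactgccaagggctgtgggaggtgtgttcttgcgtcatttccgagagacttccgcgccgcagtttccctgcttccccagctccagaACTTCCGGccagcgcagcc
ATP5G1: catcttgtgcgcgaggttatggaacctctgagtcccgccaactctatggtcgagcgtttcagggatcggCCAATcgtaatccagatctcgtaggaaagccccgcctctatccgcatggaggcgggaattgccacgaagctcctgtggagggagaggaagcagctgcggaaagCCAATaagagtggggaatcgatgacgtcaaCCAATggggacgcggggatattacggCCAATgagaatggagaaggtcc
COX4I1: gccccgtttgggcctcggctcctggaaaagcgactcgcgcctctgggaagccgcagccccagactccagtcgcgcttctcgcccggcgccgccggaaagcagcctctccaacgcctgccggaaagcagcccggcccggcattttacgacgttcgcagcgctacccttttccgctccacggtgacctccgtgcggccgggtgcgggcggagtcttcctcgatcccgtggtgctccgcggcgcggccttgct

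All 4 subunit genes of complex II had a ratio below 0, with a median of -0.20, and 3 of the 4 were at least 1.1-fold lower. SDHA, the flavoprotein that oxidises succinate, was at 85.9 and 96.8 per-million units, a log2 ratio of -0.17. SDHB, which carries the iron-sulfur clusters, was at 234 and 276, a ratio of -0.24. Both catalytic subunits were thus lower in the slow-cycling library.

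The membrane anchors of complex II differed from each other. SDHD was at 88.5 and 104, a ratio of -0.23, whereas SDHC was at 68.3 and 69.5, a ratio of -0.03. SDHA has pseudogenes that were also listed with a signal: SDHAP1 was at 15.4 and 14.1, SDHAP2 at 12.6 and 12.2, and SDHAP3 at 13.5 and 21.6. Reads of SDHA can be split among these pseudogenes, and with all 3 added to SDHA its ratio was -0.18.

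The assembly factors of complex II showed no common direction, with 2 of 4 below 0 and a median of 0.03. SDHAF3, which helps mature the iron-sulfur subunit, was at 20.3 and 27.7, a log2 ratio of -0.43. Its partner in that step, SDHAF1, was at 11.1 and 10.1, a ratio of 0.13. SDHAF2, which attaches the flavin to SDHA, was at 50.4 and 50.6, and SDHAF4, which binds flavinated SDHA, at 36.4 and 34.9. Of the 4, SDHAF3 alone was past 1.1-fold on the scale of value + 1.

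For complex III, all 10 subunit genes had a ratio below 0 and 8 were at least 1.1-fold lower, with a median of -0.22. The redox-active nuclear subunits were at nearly the same ratio. Cytochrome c1, CYC1, was at 299 and 361, and the Rieske iron-sulfur protein UQCRFS1 at 129 and 156. Their log2 ratios were both -0.27.

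The 2 core proteins, which form the matrix arm, were the members of complex III nearest to 0. UQCRC1 was at 132 and 133, a ratio of -0.01, and UQCRC2 at 167 and 176, a ratio of -0.07. The spread within the complex, from -0.01 to -0.38, was thus wider than the distance between the medians of the 4 complexes.

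Among the small subunits of complex III, UQCR10 (chromosome 22, 29767369 to 29770413, GRCh38.p14) was furthest down, at 113 and 147, a ratio of -0.38. UQCR11 was at 116 and 138, a ratio of -0.25. UQCRB and UQCRQ, which lie beside cytochrome b, were at 89.9 and 103 and at 86.8 and 99.4, each with a ratio of -0.19. The hinge protein UQCRH, the most abundant of the complex in these units, was at 678 and 752, a ratio of -0.15. UQCRHL, a near-identical intronless copy of UQCRH, was at 31.3 and 39.4, a ratio of -0.32, and its reads may belong to UQCRH. The 2 together had a ratio of -0.16.

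The assembly factors of complex III, which act on newly made cytochrome b, were lower by less. UQCC1 was at 44.5 and 47.9, UQCC2 at 36.1 and 38.1, and UQCC3 at 22.8 and 25.8. Their median log2 ratio was -0.10, and UQCC3, at -0.17, was the one of the 3 past 1.1-fold.

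Complex IV has 19 subunit genes under the rule, of which 11 were tested. The mitochondrially encoded catalytic subunits COX1, COX2 and COX3 were listed at 0, as were the tissue-restricted isoform genes COX4I2, COX6A2, COX7A1, COX7B2 and COX8C. The 10 ubiquitous nuclear subunit genes were at 201 to 1160 per-million units, and 9 of them had a ratio below 0. Their median was -0.17. With the low isoform gene COX6B2 included it was -0.14, and -0.058 once the level trend was removed. The trend-removed median without COX6B2, whose own trend-removed ratio was 0.70, was not computed.

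COX4I1, which encodes the main isoform of the regulatory subunit IV, was the exception. It lies on chromosome 16 (85799695 to 85807068, GRCh38.p14) and was at 293 in slow-cycling cells against 249, a log2 ratio of 0.24. Of the 42 members at 64 per-million units or more it was the only one at least 1.1-fold higher, against 11.3% of all tested genes at that level. Its ratio stayed above 0 under every alternative run, between 0.20 and 0.34. The oxygen-regulated isoform COX4I2 was listed at 0 in both libraries.

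The other 9 ubiquitous subunits of complex IV ran from -0.28 to -0.07. COX8A was lowest, at 423 and 513, a ratio of -0.28. COX7C, the most abundant of the complex in these units, was at 973 and 1160, and COX6C at 328 and 390, each with a ratio of -0.25. COX7A2 was at 201 and 236, and COX6A1 at 777 and 892, with ratios of -0.23 and -0.20. These 5 are small subunits that surround the catalytic core in the membrane.

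The remaining 4 ubiquitous subunits of complex IV were nearer to 0. COX7B was at 400.4 and 443, a ratio of -0.14. COX5A and COX5B, which bind on the matrix side, were at 307 and 331 and at 313 and 328, with ratios of -0.11 and -0.07. COX6B1, on the intermembrane side where cytochrome c docks, was at 339 and 365, a ratio of -0.10. COX6B2, its testis isoform, was at 2.48 in slow-cycling cells against 0.879, a ratio of 0.89. It is the only member at least 1.5-fold higher, and it passed the level filter through the library where it was higher. It made up 0.725% and 0.24% of the summed level of the 2 COX6B genes.

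**Figure D3:**
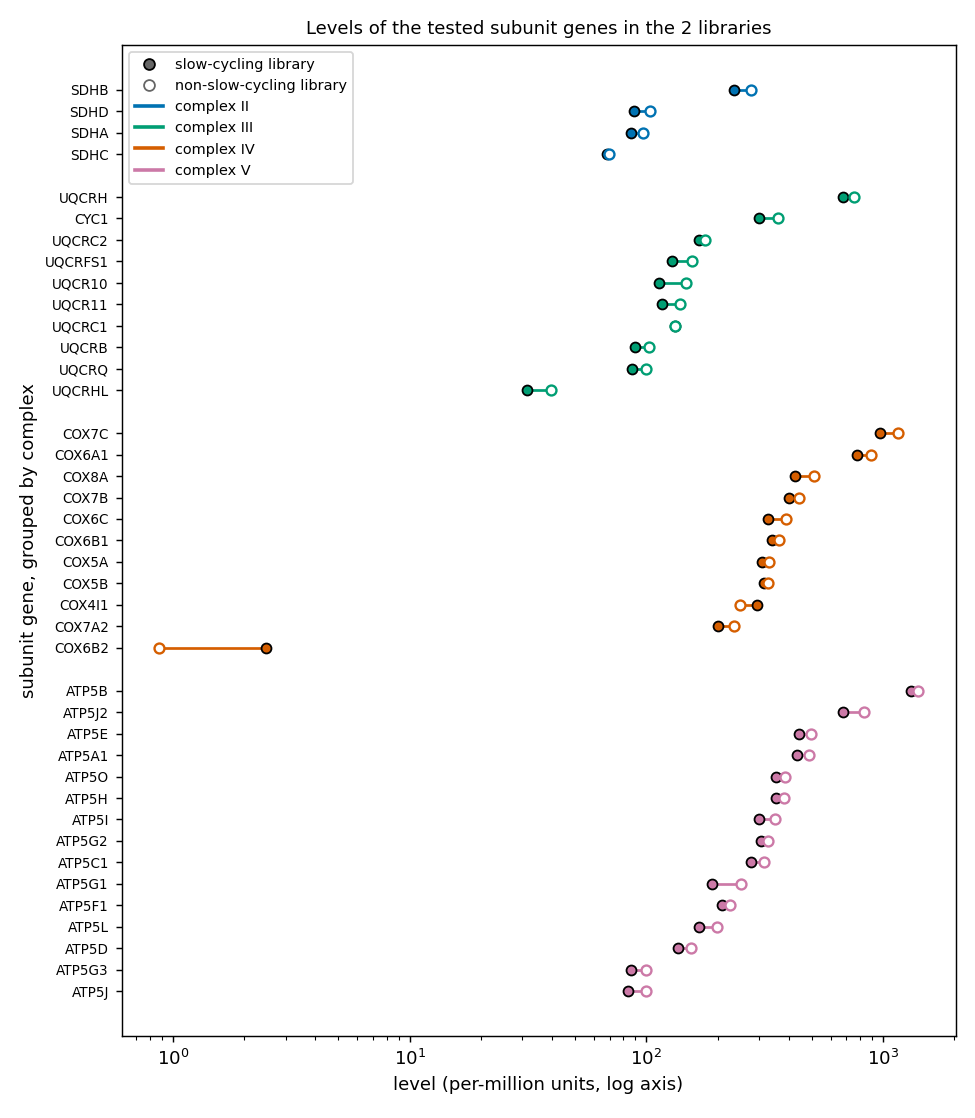
Levels of the 40 tested subunit genes in per-million units on a log axis, with a filled circle for the slow-cycling library and an open circle for the non-slow-cycling library, grouped by complex and ordered by level in the non-slow-cycling library. The filled circle lies to the left of or on the open circle for 38 genes, and to the right for COX4I1 and COX6B2.

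The 10 assembly genes of complex IV ran from -1.01 to 0.25, with a median of -0.17 and 7 below 0. COX16, which takes part in building the COX2 copper site, was at 30.2 and 62.1, a log2 ratio of -1.01. It lies on chromosome 14 (70325081 to 70359683, GRCh38.p14) inside the read-through model SYNJ2BP-COX16, which was at 17.9 and 0.484. The 2 models together were at 48.1 and 62.6, a ratio of -0.37. The value of COX16 is therefore uncertain, since reads in the shared exons can be given to either model, and its place among members at least 1.5-fold lower is lost when they are added.

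**Figure D4:**
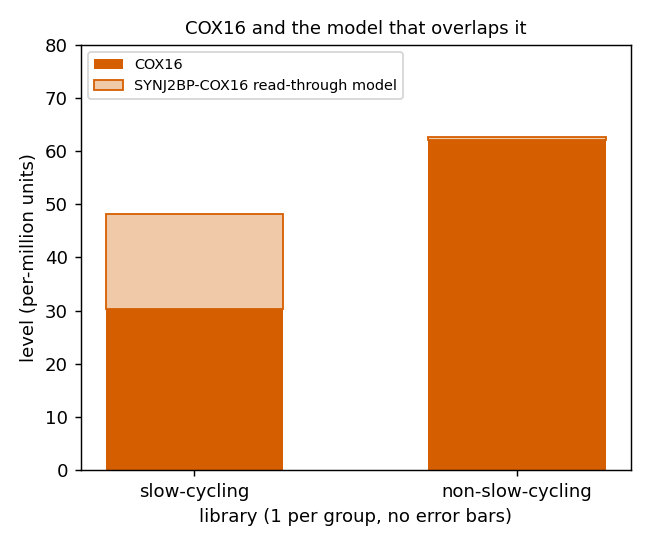
Levels of COX16 (dark) and of the overlapping SYNJ2BP-COX16 read-through model (light) stacked for each library in per-million units, with 1 library per bar and no error bars. COX16 itself was at 30.2 and 62.1, while the whole bars reach 48.1 and 62.6.

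COX14, which couples the synthesis of COX1 to its assembly, was the other member at least 1.5-fold lower. It lies on chromosome 12 (50112236 to 50120453) and was at 27.6 and 43.6, a log2 ratio of -0.64. No read-through model of COX14 was in the tables. Of all tested genes, 1.17% had a lower ratio than COX14. COX18 and COX20, which insert and chaperone COX2, were at 12.5 and 14.4 and at 83.9 and 89.8, with ratios of -0.19 and -0.10.

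The copper factors of complex IV went both ways. COX11, which delivers copper to COX1, was at 71.4 and 84.7, a ratio of -0.24. COX17, the copper chaperone that supplies it, was at 82.7 and 80.1, a ratio of 0.04. COX19, a partner of COX11, was at 22.2 and 18.5, a ratio of 0.25, the highest of all assembly genes of the 4 complexes.

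Of the heme A pathway, COX10 was at 13.9 and 16.3, a ratio of -0.21, and COX15 at 21.7 and 21.0, a ratio of 0.04. COX10-AS1, an antisense gene of COX10, was at 17.0 and 25.4. Whether the authors counted by strand is not given in the sources used here, so reads of COX10 and COX10-AS1 may not be fully apart. COX7A2L, which joins complexes III and IV into supercomplexes, was at 45.4 and 50.3, a ratio of -0.14.

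Every one of the 15 tested subunit genes of complex V had a ratio below 0, from -0.40 to -0.09, with a median of -0.18, and 10 were at least 1.1-fold lower. ATP5L2, a copy of ATP5L, was listed at 0 in both libraries. In the catalytic head, the beta subunit ATP5B, the most abundant member of all in these units, was at 1315 and 1399. Its ratio of -0.09 was the one nearest to 0 in the complex. The alpha subunit ATP5A1 was at 432 and 487, a ratio of -0.17. With the level trend removed the median of the complex was -0.10.

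The central stalk, which turns within the head, was at 1 ratio throughout. ATP5C1 was at 277 and 314, ATP5D at 136 and 154, and ATP5E at 439 and 496, each with a log2 ratio of -0.18. ATP5EP2, an expressed copy of ATP5E, was at 13.5 and 16.2, and adding it left ATP5E at -0.18.

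The peripheral stalk, which holds the head still, had a median of -0.12. ATP5F1 was at 210 and 226, ATP5H at 354 and 381, and ATP5O at 352 and 385, with ratios of -0.11, -0.10 and -0.13. ATP5J was at 83.5 and 99.4, a ratio of -0.25, and was the only one of the 4 past 1.1-fold.

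The c-ring, the rotor that protons turn, is made of a single protein that 3 genes encode with different import sequences. ATP5G1 (chromosome 17, 48892787 to 48895871, GRCh38.p14) was at 190.3 and 252, a log2 ratio of -0.40, the lowest of any subunit gene of the 4 complexes. ATP5G2 was at 304 and 328, a ratio of -0.11, and ATP5G3 at 86.6 and 100.03, a ratio of -0.21. The 3 genes together were at 581 and 680, a ratio of -0.23. ATP5G1 made up 32.8% and 37.1% of that sum, and ATP5G2 52.3% and 48.2%.

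The small membrane subunits that lie where ATP synthases join into dimers were lower together, with a median of -0.25, and all 3 tested were past 1.1-fold. ATP5J2 was at 675 and 834, a ratio of -0.30. ATP5I was at 299 and 350.3, a ratio of -0.23, and ATP5L at 167 and 199, a ratio of -0.25. The read-through model ATP5J2-PTCD1 was at 8.49 and 8.27, and adding it left ATP5J2 at -0.30.

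The accessory genes named after ATP synthase were close to 0. ATP5S, coupling factor B, was at 9.19 and 9.25, a ratio of -0.01. ATP5SL, whose product is now known as the complex I assembly factor DMAC2, was at 63.7 and 67.4, a ratio of -0.08.

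The 6 members lower by at least 20% on the scale of value + 1, against 4.99% of tested genes, were COX16, COX14, SDHAF3, ATP5G1, UQCR10 and UQCRHL. Subunits and assembly genes both occur among them, and each of the 4 complexes is represented. At the other end were COX6B2, COX19 and COX4I1, the 3 members at least 1.1-fold higher, against 31.8% of tested genes. All 3 are of complex IV, but COX6B2 is near the level filter and passed it only in the slow-cycling library.

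Other genes of the same machinery mostly lay on the same side. They come from lists drawn up by function, but with earlier results of these data known. One list outside the naming rule held mainly assembly factors of complexes III to V, together with the complex I factor NUBPL and the ATP synthase inhibitor ATPIF1. Of its 28 tested genes, 25 had a ratio below 0, against 43.8% of tested genes, 14 were at least 1.1-fold lower, against 19.4%, and none was higher by that much. Their median ratio was -0.14. COA3, a partner of COX14 in COX1 assembly, was at 33.8 and 44.0, a ratio of -0.37. TMEM177, which acts with COX20, was at 20.9 and 26.9, and COA7 at 45.3 and 57.9, each with a ratio of -0.35. PET100, another complex IV factor, was at 97.2 and 124, also -0.35. HIGD2A was listed at 0 in both libraries.

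Among electron carriers and exchangers 17 of 22 were below 0, against 43.8% of tested genes and 65.9% of those at 64 per-million units or more. The 22 include subunits of the complexes described here, NDUFA4 of complex IV and USMG5 and C14orf2 of the ATP synthase, each below 0. At least 1.1-fold lower were 9, USMG5 and C14orf2 among them, against 19.4% and 27.4%, and the median ratio was -0.10. Cytochrome c, CYCS, which links complexes III and IV, was at 116 and 151, a ratio of -0.38, the lowest of the list. PDSS1, which makes the tail of ubiquinone, was at 41.6 and 49.6, a ratio of -0.25. ETFB, a subunit of the electron transfer flavoprotein, was at 50.4 and 40.6, a ratio of 0.31, and was the only one of the list at least 1.1-fold higher. C14orf2, a small subunit of ATP synthase outside the naming rule, was at 143 and 164, a ratio of -0.19.

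Regulators of mitochondrial gene expression differed less. Of 15 tested, 10 were below 0, against 43.8% of all tested genes. At least 1.1-fold lower was 1, against 19.4%, and 1 was at least 1.1-fold higher, against 31.8%. Their median ratio was -0.06. GABPB1, a subunit of the GABP factor, was at 26.8 and 23.0, a ratio of 0.21. The transcription factor NRF1 was at 25.6 and 23.3, a ratio of 0.13. MTERF1, a mitochondrial transcription factor, was at 43.9 and 49.4, a ratio of -0.17. TFAM, which packages and transcribes mitochondrial DNA, was at 43.1 and 46.3, and YY1 at 69.7 and 74.8, each with a ratio of -0.10. The coactivator PPARGC1A was listed at 0 in both libraries.

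Genes through which HIF factors or low oxygen are known to alter respiration were mostly higher in slow-cycling cells. Of 8 tested, 5 were at least 1.1-fold higher, against 31.8% of tested genes. Below 0 were 3, against 43.8%. Of these 1, HIGD1A at 60.7 and 67.0, a ratio of -0.14, was at least 1.1-fold lower, against 19.4% of tested genes. The median ratio of the 8 was 0.40. NDUFA4L2, a paralogue of the complex IV subunit NDUFA4, was at 4.50 and 1.61, a ratio of 1.08. Its mean level is under 4 per-million units, where tested genes had a median ratio of 0.22 and 30.3% were below 0. NDUFA4 itself was at 264 and 286, a ratio of -0.12. The kinase PDK1, which limits the entry of pyruvate into mitochondria, was at 29.2 and 19.4, a ratio of 0.57. The mitophagy receptor BNIP3 was at 266 and 181, a ratio of 0.55, and MXI1, which antagonises MYC, at 33.4 and 23.4, a ratio of 0.50. The protease LONP1, which degrades COX4I1 protein when oxygen is low, was at 120.1 and 129, a ratio of -0.10.

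Removing the trend of the ratio with level reduced the medians of all 4 subunit groups but left each below 0. They became -0.14 for complex II, -0.16 for complex III, -0.058 for complex IV with COX6B2 included, and -0.10 for complex V. The number of members at least 1.1-fold lower went from 35 to 27. With transcript length removed as well, an alternative chosen after the data were seen, the medians were -0.14, -0.15, -0.041 and -0.082, and 22 members were at least 1.1-fold lower. SDHC, COX5B, UQCRC1 and UQCRC2 went from just below 0 to just above 0 in both cases.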

How the data were processed

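Each of the 2 tables held 53826 lines of a gene symbol, an Entrez ID and 1 value described as normalized per the file headers. The deposited values appear to be log2 of a per-million unit plus 1, judging from the numbers: none was negative, and 2 raised to each value, minus 1, summed to 983638 and 984120. Whether they are scaled by transcript length is not stated, so levels of different genes are compared with that reserve. Per the submitters' processing notes the genome was hg38. Neither the aligner, the counting tool nor the annotation is stated. Column headers read LRC and non-LRC, and groups come from the sample each table was deposited for.

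Lines of 1 gene ID were summed, leaving 53737 genes. The members and lists were chosen with earlier results of these data known. COX8BP and ATP5J2LP were left out as RefSeq pseudogenes. All tested members could be named, and up to 4 genes per other list, those with the largest absolute ratio. NDUFA4, USMG5, LONP1, HIGD1A, YY1 and the genes and markers at 0 were named beyond that rule, after their values were seen. Gene coordinates and promoters are RefSeq's (GRCh38.p14). Transcript lengths and strands are from GENCODE 29, the median over protein-coding transcripts. Calculations used Python 3.11.15, numpy 2.4.6 and pandas 2.3.3, and were tested on simulated data. Alternatives covered scaling, the filter, the pseudocount, trends with level and length, and overlapping models.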

Additional observations from a re-analysis of the deposited data

How the results depend on the processing

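Of 587 ratios of single members recomputed under 10 settings, 576 kept their sign, and the 11 others were of members within 1.1-fold of 0. By more than 0.05 on the log2 scale 81 of the 587 moved, 36 of the 59 members with the level trend removed and 43 with level and transcript length removed. Trend removal is the setting that mattered. With the level trend removed the medians of complexes II, III, IV and V were -0.14, -0.16, -0.058 and -0.10. With level and transcript length removed, added after seeing the data, they were -0.14, -0.15, -0.041 and -0.082, with 22 members at least 1.1-fold lower. The count at least 1.5-fold lower, 2, was 1 with read-through models added, 6 when 20% lower sufficed and 1 at 2-fold. The count at least 1.5-fold higher, 1, was 0 at 2-fold and 0 with a minimum of 5 per-million units. All other medians and ratios of summed levels stayed within 0.05 on the log2 scale, a fixed tolerance used in place of a replicate spread, and all other counts within 1.5 times. Ratios of sums were not computed with trends removed or with another pseudocount, which do not apply to them. No paired analysis was possible because each group has 1 library. The unknown depth limits what can be said of genes at a few per-million units, such as COX6B2, whose ratio was 1.40 with a pseudocount of 0.1.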

Other observations

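Several respiratory genes start near the start of a neighbour on the other strand. Such pairs can diverge or overlap, and whether they share promoter DNA was not examined. Within 1000 bases between starts (GENCODE 29, protein-coding genes), 12 tested members had such a neighbour that was tested as well. Of the 12 neighbours, 6 had a log2 ratio below 0 and 6 above 0, with a median of -0.03. Over all tested genes 43.8% were below 0, with a median of 0.03. The ratio had the same sign within 7 of the 12 pairs. The pairs named next were chosen after their values were seen.

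COX4I1, the one abundant subunit gene above 0, is paired with EMC8, a gene of the endoplasmic reticulum membrane complex. Their starts lie 975 bases apart, and EMC8 was at 25.9 and 22.1, a ratio of 0.22 beside 0.24 for COX4I1. UQCR10, the lowest subunit gene of complex III, is paired with ZMAT5, a zinc finger gene, which was at 18.7 and 24.5, and both had a ratio of -0.38. SDHD is paired with TIMM8B, a mitochondrial import chaperone, which was at 59.1 and 75.0, a ratio of -0.34 beside -0.23. Against these stand UQCRH with LRRC41, at 128 and 123, where the ratios were -0.15 and 0.05, and COX11 with STXBP4, where they were -0.24 and 0.09.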
